A study of Mus musculus with 4 samples.

Results

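The neurotrophins, their receptors and the sortilin family were measured here as 9 genes: the ligands Bdnf and Ntf3, the receptors Ntrk2, Ntrk3 and Ngfr, and the sorting receptors Sort1, Sorcs1, Sorcs2 and Sorcs3. They were chosen by gene name from the 28193 genes of the deposited count table, each matched 1 row, and all 9 passed the count filter that left 22338 genes for testing. With condition as the only term, edgeR called none of the 9 between sleep-deprived and control libraries, whereas DESeq2 called Ngfr and Sorcs2 higher and Sorcs3 lower, where 2.99% and 5.79% of all genes were called. Ngfr, Sorcs1 and Sorcs2 were above, and Sorcs3 below, the controls in both batches. Ntrk2, Ntrk3 and Sort1 were also above in both, by smaller log2 differences. With the batch number of the labels as a block, edgeR called Ngfr, Sorcs1 and Sorcs2 higher and Sorcs3 lower. The shares called were 2.99% and 8.47% of all genes, and 3.77% and 3.29% of protein-coding genes. The ligands Bdnf and Ntf3 had overlapping groups.

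fosTRAP-seq, in which RNA is pulled down with HA-tagged ribosomes from neurons that expressed Fos in a tagging window, was compared between sleep-deprived (SD) and non-sleep-deprived (NSD) male mice. C57BL/6J mice aged 3 to 5 months had received AAV vectors in dorsal CA1, with a c-Fos-driven, tamoxifen-dependent Cre and a Cre-dependent HA-tagged Rpl22, and both groups were given 4-hydroxytamoxifen with a first 5 h bout of sleep deprivation on day 0. A second bout of 5 h, from ZT 0 of day 7, was given to the SD group alone, and tissue was taken at ZT 5, so the controls also carried the tag and an earlier bout of sleep loss. CA1 of 5 mice was pooled into each library, and the 10 mice per group gave 2 NSD and 2 SD libraries, with 1 library of each group in batch 1 and in batch 2. The sample labels give the genotype as cFos-Cre:Ribotag and the source as dorsal hippocampus, whereas the methods describe injected vectors and microdissected CA1. The tag marks neurons active in the first bout, whichever cells were active in the second. Values after ± are standard deviations between 2 pools (n = 2 libraries per group), so tests measure the spread between pools, and a lower level of an mRNA cannot be told apart from a smaller share of the cells that carry it.

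Neurotrophins are secreted growth factors made as proforms. Mature BDNF and NT-3 act through the receptor tyrosine kinases TrkB and TrkC, whereas proforms bind the p75 neurotrophin receptor together with a sortilin family member, an arrangement linked to spine loss and long-term depression. In the hippocampus BDNF-TrkB signalling is best known for its role in long-term potentiation and memory, and sortilins also move receptors between the Golgi, endosomes and the cell surface.

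The 4 libraries summed to 153511705 to 195910235 estimated counts, and the members held from 112 counts (Ntf3, SD 1) to 201673 counts (Sort1, SD 2). Values are CPM, the usual counts per library depth, here with TMM scaling. Markers of CA1 pyramidal and excitatory neurons summed to 6349.9 and 6674 CPM in NSD and to 6111 and 6579.5 CPM in SD. Markers of astrocytes summed to 598 to 674 CPM, of oligodendrocytes and precursors to 1443 to 1731 CPM, of interneurons to 740.3 to 832 CPM, and of microglia to 54.8 to 71.9 CPM. Dentate granule cell markers summed to 50.6 to 62 CPM and CA2 and CA3 markers to 68.8 to 77.9 CPM. Of the members, 9 of 9 were higher in NSD 2 than in NSD 1, and 8 of 9 were higher in SD 2 than in SD 1, Ntrk3 being the exception.

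Per kilobase of merged exons, Sort1 was the most abundant member, at 102 to 129.9 CPM per kb over the 4 libraries. The Trk receptors followed, Ntrk2 at 22.3 to 25 and Ntrk3 at 19.9 to 22.5 CPM per kb, with overlapping ranges. Sorcs3 lay at 11.8 and 13.8 in NSD and 9.56 and 10.3 in SD, against 6.73 and 8.61 in NSD and 9.35 and 11 in SD for Sorcs2, so that this pair was apart in NSD and overlapped in SD. Sorcs1, at 2.71 to 3.68, and Bdnf, at 2.61 to 3.01 CPM per kb, also overlapped. Ngfr, at 0.624 to 1.23, and Ntf3, at 0.357 to 0.591 CPM per kb, were the lowest. With the length of the longest transcript in place of the merged exons, Bdnf (4.76 CPM per kb) came before Sorcs1 (3.6 CPM per kb), and with the longest coding sequence Bdnf ranked 4th. The closeness of Ntrk2 and Ntrk3 also depended on the length used. Their means were 79.1 and 33.7 CPM per kb of the longest transcript, and 291 and 256 CPM per kb of the longest coding sequence.

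**Figure D1:**
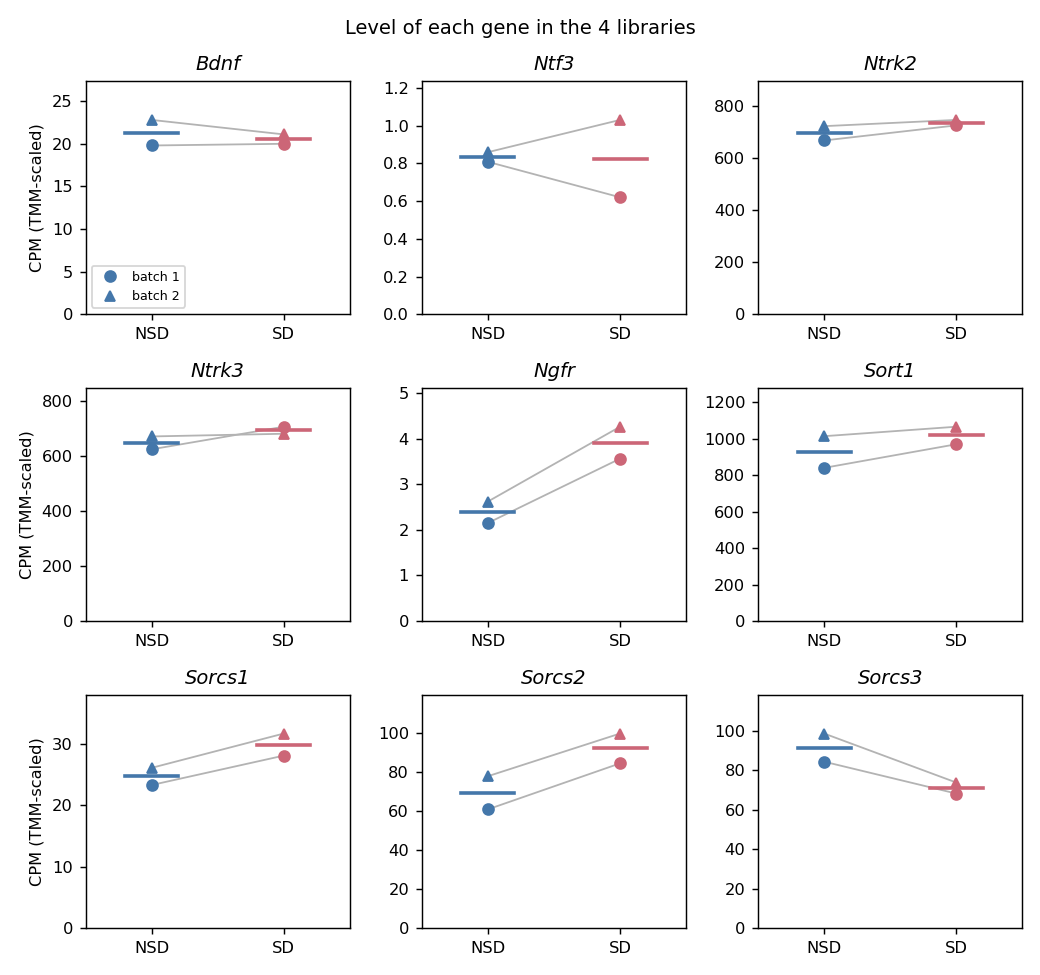
CPM of each member in each library on its own axis, with circles for batch 1, triangles for batch 2, bars for group means and grey lines joining libraries of the same batch. Ngfr, Sorcs1, Sorcs2, Ntrk2 and Ntrk3 have groups that do not overlap with SD the higher, and Sorcs3 has both below.

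Both ligands were present at modest levels and neither differed beyond the spread between pools. Bdnf (ENSMUSG00000048482, chr2:109505045-109557352, plus strand, GRCm39), which encodes the main activity-regulated neurotrophin of the hippocampus, was at 19.8 CPM in NSD 1, 22.8 in NSD 2, 20 in SD 1 and 21.1 in SD 2. The SD libraries lay between the NSD libraries. The means were 21.3 ± 2.15 CPM in NSD and 20.5 ± 0.786 CPM in SD, a log2 fold change of -0.05 with a 95% interval of -0.27 to 0.16 (edgeR adjusted p = 0.833). Without NSD 2 the log2 fold change was 0.05. The row sums all Bdnf transcripts (18 in the annotation used), which start from several promoters, so a switch between them would not be visible.

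Ntf3 (ENSMUSG00000049107, chr6:126078375-126143873, minus strand) encodes NT-3, the preferred ligand of TrkC. It was at 0.808 CPM in NSD 1, 0.859 in NSD 2, 0.62 in SD 1 and 1.03 in SD 2, and the SD libraries lay on either side of the NSD libraries. The log2 fold change was -0.02 with an interval of -0.83 to 0.79 (edgeR adjusted p = 0.988), which does not exclude a change of moderate size. Its within-batch log2 differences were -0.38 in batch 1 and 0.26 in batch 2.

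The Trk receptors had groups that did not overlap, with SD slightly the higher, by less than the test could separate from the spread. Ntrk2 (ENSMUSG00000055254, chr13:58954383-59281784, plus strand), the gene of the BDNF receptor TrkB, was at 668 and 723 CPM in NSD 1 and NSD 2 and at 726 and 747 CPM in SD 1 and SD 2. The lowest SD library was just above the highest NSD library. The log2 fold change was 0.08 with an interval of -0.13 to 0.29 (edgeR adjusted p = 0.709). Ntrk3 (ENSMUSG00000059146, chr7:77825707-78387760, minus strand), the gene of TrkC, was at 623 and 669.7 CPM in NSD 1 and NSD 2 and at 705 and 679.5 CPM in SD 1 and SD 2. The groups did not overlap, though SD 2 and NSD 2 were close, and the within-batch log2 differences were 0.18 and 0.02. The log2 fold change was 0.10 with an interval of -0.11 to 0.31 (edgeR adjusted p = 0.641). Both genes also make receptors without the kinase domain, and a count per gene adds these to the full-length forms.

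Ngfr (ENSMUSG00000000120, chr11:95459644-95478561, minus strand) encodes the p75 neurotrophin receptor, which binds all neurotrophins and, with a sortilin partner, their proforms. It was at 2.15 CPM in NSD 1, 2.62 in NSD 2, 3.56 in SD 1 and 4.26 in SD 2, from 357, 411, 643 and 806 counts. Both SD libraries were above both NSD libraries, and the gap between groups was larger than that within either group. The means were 2.38 ± 0.327 CPM in NSD and 3.91 ± 0.498 CPM in SD, a ratio of 1.64, the largest of the 9 genes. The log2 fold change was 0.71 (SE 0.198, 95% interval 0.26 to 1.17), with an edgeR adjusted p of 0.0913 and an unadjusted p of 0.00641. With the batch number as a block the log2 fold change was again 0.71 (interval 0.36 to 1.06, edgeR adjusted p = 0.01), and DESeq2 without a block gave 0.74 (adjusted p = 0.0117). The within-batch log2 differences were 0.72 and 0.70. When a library was left out, edgeR gave 0.84 without SD 1 (adjusted p = 0.0225), and 0.59 without SD 2, 0.61 without NSD 1 and 0.86 without NSD 2 (adjusted p = 0.324, 0.239 and 0.0997), so 1 of the 4 fits called it. The study names Ngfr among the changed genes of these samples.

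Ngfr is known in the brain from basal forebrain cholinergic neurons, and from fibroblasts and glia under some conditions. The cholinergic markers Chat, Slc18a3 and Slc5a7 summed to 0.621 and 0.719 CPM in NSD and to 0.487 and 0.762 CPM in SD, with overlapping groups and at most 19 counts of Chat in a library. The 5 fibroblast and meningeal markers summed to 26.8 and 23.5 CPM in NSD and to 31.8 and 28.7 CPM in SD. Of these 5, 3 had a log2 fold change above 0 and 2 below, Lum (-0.36) and Pdgfrl (-1.13). Dcn was called higher with the block (edgeR adjusted p = 0.0224) and none without it, and no marker of the list was at 0. The part of these cells in the Ngfr difference was not tested.

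The sortilins did not move together. Sort1, Sorcs1 and Sorcs2 had higher means in SD and Sorcs3 a lower one, and the differences were called with the block for the 3 Sorcs genes and not for Sort1. Sort1 (ENSMUSG00000068747, chr3:108191398-108268827, plus strand) encodes sortilin, which sorts proBDNF to the regulated secretory pathway and is the best-known partner of p75. It was at 840.3 CPM in NSD 1, 1014 in NSD 2, 969.9 in SD 1 and 1066 in SD 2. NSD 2 was above SD 1, so the groups overlapped. The log2 fold change was 0.14 with an interval of -0.13 to 0.40 (edgeR adjusted p = 0.618), and 0.14 with an interval of -0.03 to 0.31 with the block (adjusted p = 0.28).

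Sorcs1 (ENSMUSG00000043531, chr19:50131737-50667084, minus strand) encodes a sorting receptor that carries neurexin and AMPA receptors to the neuronal surface and affects TrkB trafficking. It was at 23.3 CPM in NSD 1, 26.1 in NSD 2, 28.1 in SD 1 and 31.7 in SD 2, and the groups did not overlap. The means were 24.7 ± 1.95 and 29.9 ± 2.55 CPM, and the log2 fold change was 0.28 (SE 0.0924, interval 0.07 to 0.49, edgeR adjusted p = 0.142). The block gave 0.28 (interval 0.13 to 0.42, edgeR adjusted p = 0.0142) and DESeq2 without it 0.30 (adjusted p = 0.0563). The value lies just past the fold threshold of 1.2, which is 0.26 on the log2 scale, and leaving out a library moved it across that threshold. It was 0.20 without SD 2 and 0.23 without NSD 1 (edgeR adjusted p = 0.547 and 0.306), and 0.36 both without NSD 2 and without SD 1 (adjusted p = 0.0887 and 0.0499).

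Sorcs2 (ENSMUSG00000029093, chr5:36174524-36555483, minus strand) encodes a proneurotrophin receptor that pairs with p75 and is needed for hippocampal plasticity. It was at 60.8 CPM in NSD 1, 77.8 in NSD 2, 84.4 in SD 1 and 99.7 in SD 2. Both SD libraries were above both NSD libraries, but NSD 2 was closer to SD 1 than to NSD 1. The means were 69.3 ± 12 and 92 ± 10.8 CPM, a ratio of 1.33. The log2 fold change was 0.41 (SE 0.122, interval 0.13 to 0.69, edgeR adjusted p = 0.107). Batch 2 libraries were the higher of each group, and with the block the value was 0.42 with a smaller SE of 0.0561 (interval 0.29 to 0.54, edgeR adjusted p = 0.000382). DESeq2 without the block gave 0.43 (adjusted p = 0.00957). Without SD 1 edgeR gave 0.52 (adjusted p = 0.000148), and without NSD 2 it gave 0.60 (adjusted p = 0.0278). It was not called without NSD 1, at 0.27 (adjusted p = 0.217), or without SD 2, at 0.30 (adjusted p = 0.0999).

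Sorcs3 (ENSMUSG00000063434, chr19:48194464-48793944, plus strand) encodes a postsynaptic sorting receptor required for long-term depression in CA1. It was at 84.4 CPM in NSD 1, 98.7 in NSD 2, 68.2 in SD 1 and 73.8 in SD 2. Both SD libraries were below both NSD libraries, the only member with this order. The means were 91.6 ± 10.1 and 71 ± 3.93 CPM, a ratio of 0.776, and the log2 fold change was -0.37 (SE 0.0874, interval -0.57 to -0.17), with the smallest unadjusted p of the 9 genes (0.00274, edgeR adjusted p = 0.0633). The block gave -0.36 (interval -0.48 to -0.24, edgeR adjusted p = 0.00097) and DESeq2 without it -0.34 (adjusted p = 0.00839). Without NSD 1 edgeR gave -0.45 (adjusted p = 0.0343), and without SD 2 it gave -0.41 (adjusted p = 0.0092). It was not called without NSD 2, at -0.25 (adjusted p = 0.116), or without SD 1, at -0.31 (adjusted p = 0.076).

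Sorcs3 is abundant in CA1 pyramidal neurons. Of the 8 markers of CA1 pyramidal and excitatory neurons, Wfs1, Fibcd1 and Neurod6 were called lower with the block and by DESeq2, none of the 8 was called by edgeR without it, and the median log2 fold change of the 8 was -0.16. Camk2a and Slc17a7, general markers of excitatory neurons, had log2 fold changes of -0.03 and 0.08. The 8 endothelial and mural markers, with a median of -0.57, summed to 95 and 105 CPM in NSD and to 83.1 and 63.5 CPM in SD, and 5 of them were called lower with the block. The study names Flt1, Tek and Tie1 of this list on these samples. The part of these shifts in the difference of Sorcs3 was not tested. Sorcs1 and Sorcs3 lie 1338 kb apart on chromosome 19.

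**Figure D2:**
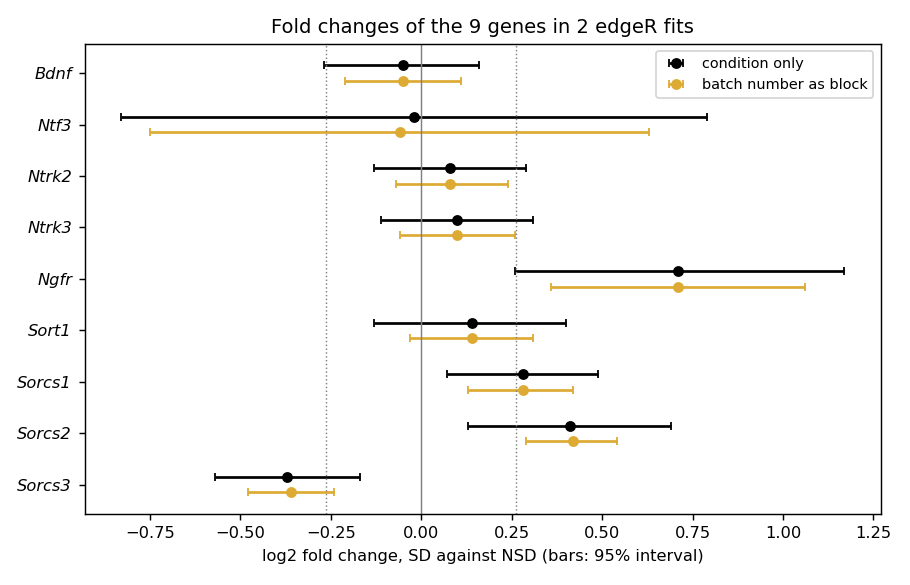
Log2 fold change (SD over NSD) of each member with its 95% interval, from edgeR with condition alone and with the batch block. Intervals of Ngfr, Sorcs1, Sorcs2 and Sorcs3 exclude 0 in both fits, and those of Bdnf, Ntf3, Ntrk2, Ntrk3 and Sort1 include it.

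Over the 9 genes, edgeR without the block called 0 in either direction, where 0.77% of the genes tested were called higher and 2.33% lower. At an unadjusted p under 0.05 there were 4 members, and 19.1% of all genes. The block called 3 members higher and 1 lower, where 2.99% and 8.47% of all genes were called, and 3.77% and 3.29% of protein-coding genes. DESeq2 without the block called 2 higher (Ngfr and Sorcs2) and 1 lower (Sorcs3), where 2.99% and 5.79% of genes were called. Of 15539 protein-coding genes it called 606 higher and 278 lower. For 5 members the groups did not overlap with SD the higher, and for 1 with SD the lower, where the shares of all genes were 22% and 27.5%. Those of protein-coding genes were 26.5% and 20%. The median log2 fold change of the members was 0.10, and that of all genes tested -0.0164. The block fit has 1 residual degree of freedom and the fit without it 2, against 6.38 prior degrees of freedom that edgeR draws from all genes. On simulated counts a larger share of the calls made with the block was false than of those made without it. Calls that rest on the block alone may be too many. The simulated counts held no difference between batches, so they cannot tell whether this is so where batches differ. Of the 4 members only Sorcs1 rests on the block. No fit of all 4 libraries without the block called Sorcs1, whereas DESeq2 without the block also called Ngfr, Sorcs2 and Sorcs3.

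Ratios within a library do not depend on library scaling, and are given as a description with no test. The smallest p of an exact permutation test of 2 against 2 libraries is 0.333, and no model was fitted to the ratios. They are CPM over CPM, not per length, so only their differences between libraries are read, not which gene of a pair was the more abundant. Ngfr over Ntrk2 was -8.28 and -8.11 on the log2 scale in NSD 1 and NSD 2 and -7.67 and -7.45 in SD 1 and SD 2, a difference of 0.63. Ngfr over Sort1 differed by 0.57, from -8.61 and -8.60 in NSD to -8.09 and -7.97 in SD. In both, the SD libraries were above the NSD libraries, so p75 mRNA was higher relative to TrkB and sortilin mRNA.

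Among the sortilins the ratios moved in opposite ways. Sorcs2 over Sort1 was -3.79 and -3.71 in NSD and -3.52 and -3.42 in SD, a difference of 0.28, and Sorcs1 over Sort1 differed by 0.14. Sorcs3 over Sort1 was -3.32 and -3.36 in NSD and -3.83 and -3.85 in SD, a difference of -0.50. The NSD and SD pairs of this last ratio were each within a few hundredths of each other. Bdnf over Ntrk2 was below the NSD libraries in SD (difference -0.13), whereas Ntrk3 over Ntrk2 (0.01) and Ntf3 over Ntrk3 (-0.16) had overlapping groups.

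**Figure D3:**
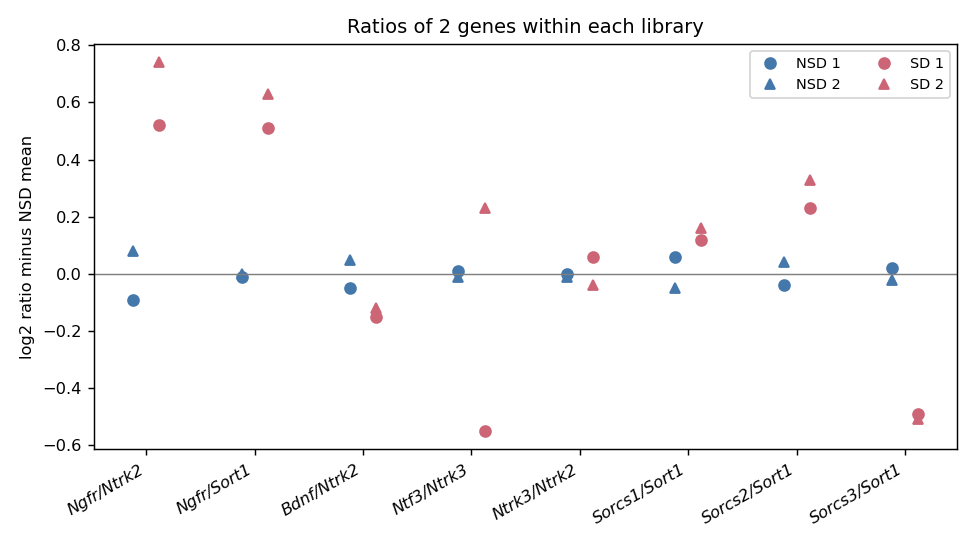
Log2 ratio of pairs of members within each library, minus the mean of the NSD libraries, with circles for batch 1 and triangles for batch 2. Ngfr over Ntrk2 differs by 0.63 and Sorcs3 over Sort1 by -0.50 between SD and NSD, with no overlap of groups.

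RefSeq promoter windows (250 bases before a start, from a GRCm38.p6 table, each placed at a unique match in GRCm39) were given for 6 of the 9 genes, 13 windows in all. The 3 below are shown because these genes were called with the block, 2 of them in opposite directions on the same chromosome. They are written 5′ to 3′ on the strand of the gene, with each CG dinucleotide in capitals. Ngfr is from chr11:95478562-95478774 (minus strand, 213 bases), Sorcs1 from chr19:50667085-50667334 (minus strand) and Sorcs3 from chr19:48194214-48194463 (plus strand).
Ngfr: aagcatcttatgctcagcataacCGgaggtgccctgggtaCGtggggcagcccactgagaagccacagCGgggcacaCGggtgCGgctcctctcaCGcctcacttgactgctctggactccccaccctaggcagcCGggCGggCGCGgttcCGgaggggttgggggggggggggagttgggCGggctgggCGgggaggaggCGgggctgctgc
Sorcs1: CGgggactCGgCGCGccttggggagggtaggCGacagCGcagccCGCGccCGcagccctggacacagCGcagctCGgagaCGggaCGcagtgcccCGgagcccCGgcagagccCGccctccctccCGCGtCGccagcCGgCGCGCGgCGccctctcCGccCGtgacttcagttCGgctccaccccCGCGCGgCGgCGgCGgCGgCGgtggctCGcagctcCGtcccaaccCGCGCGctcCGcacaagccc
Sorcs3: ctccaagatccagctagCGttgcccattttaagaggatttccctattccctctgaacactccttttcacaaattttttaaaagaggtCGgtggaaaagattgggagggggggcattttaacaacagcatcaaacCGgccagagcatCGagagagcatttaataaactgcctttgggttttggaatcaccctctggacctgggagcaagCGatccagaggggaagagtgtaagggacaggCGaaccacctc
The Sorcs1 window held 41 CG dinucleotides at 79.6% GC, a number reached by 1.09% of 32851 windows. The Sorcs3 window held 6 at 48.4% GC, the median number of all windows. The full Ngfr window held 16 at 70.4% GC, reached by 25.4% of windows. TGACGTCA (the cAMP response element) was in 0 of the 13 member windows and in 1.55% of all windows, TGACTCA (the AP-1 site) was in 0 and in 4.46%, and CACGTG (the E-box) was in 1, in Ntf3 at 231 bases before the start, and in 6.02%. Both strands were searched, and no motif contains another, though TGACGTCA and TGACTCA begin with the same 4 letters. No match says only that these letters are not in the window.

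Of 121 other genes of the pathway, 116 were tested, and 78 had a log2 fold change above 0 and 38 below, with a median of 0.08 against 0.02 for all protein-coding genes. Arc was the only gene of these lists that edgeR called without the block, 8 genes of the 116 were called higher and 2 lower with the block, and DESeq2 called 9 and 1. The block called 3.77% of protein-coding genes in the higher direction and 3.29% in the lower. The median was 0.11 for 47 Trk adaptor and signalling genes, 0.06 for 24 p75 adaptor and signalling genes, 0.01 for 12 processing genes, 0.03 for 11 retromer and sortilin partners, 0.09 for 9 transcription regulators of Bdnf and 0.20 for 11 genes induced by BDNF.

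Ntf5, the gene of the TrkB ligand NT-4, did not pass the filter, with 1, 4, 5 and 0 counts in NSD 1, NSD 2, SD 1 and SD 2. Sorl1, a sortilin relative that sorts the amyloid precursor protein, was at 894 and 1083 CPM in NSD and 1053 and 1199.7 in SD (0.19, edgeR adjusted p = 0.48). Pcsk1, a proprotein convertase of dense-core granules, was at 22.6 and 24.1 CPM in NSD and 26.1 and 28.9 in SD (0.23, adjusted p = 0.174). The groups overlapped for Sorl1 and did not for Pcsk1.

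Of the Trk adaptors and kinases, 25 of 47 were without overlap and higher in SD, and 4 were without overlap and lower, where the shares of all protein-coding genes tested were 26.5% and 20%, and those of all genes 22% and 27.5%. Crkl, an adaptor that couples Trk receptors to Rap1, was at 65.4 and 65.1 CPM in NSD and 78.6 in both SD libraries (0.27, edgeR adjusted p = 0.0591, 0.0056 with the block). Shc3, a neuronal Shc adaptor, was at 139 and 133 CPM in NSD and 179 and 158 in SD, and Rps6ka2, a kinase downstream of ERK, at 67.1 and 59.3 CPM in NSD and 76.9 and 80.2 in SD. Both had a log2 fold change of 0.31 and were called with the block, with edgeR adjusted p of 0.00495 and 0.00538. The study names Rps6ka2, Akt2 and Ptpn11 of this list on these samples, so these members are not independent evidence of its direction. In the p75 list, Map3k5 (ASK1, a stress kinase upstream of JNK) was at 25.6 and 28 CPM in NSD and 31 and 34.5 in SD (0.29, edgeR adjusted p = 0.106, 0.00996 with the block).

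In the retromer list, Snx27, which returns receptors from endosomes to the surface, was at 178 and 193 CPM in NSD and 214 and 209.9 in SD (0.19, edgeR adjusted p = 0.218). Npas4, an activity-dependent regulator of Bdnf, was at 5.57 and 4.68 CPM in NSD and 3.72 and 3.73 in SD (-0.46, edgeR adjusted p = 0.16, and 0.049 with the block). Arc, a postsynaptic effector gene, rose from 199 and 233 CPM in NSD to 386 and 426 in SD (0.91, edgeR adjusted p = 0.0328). Of the other BDNF-induced genes, Egr1 (0.38), Homer1 (0.42) and Vgf (0.27) were called higher and Nptx2 (-0.42) lower with the block, with edgeR adjusted p of 0.00433, 0.00115, 0.0246 and 0.00246. The study names Arc, Egr1, Homer1 and Vgf on these samples, so these are not independent evidence of a direction for the list. Fos, from 271 and 513 CPM in NSD to 336 and 375 in SD, had overlapping groups. Shc3, Rps6ka2, Egr1, Homer1, Vgf, Nptx2 and Fos were named after their values were seen.

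**Figure D4:**
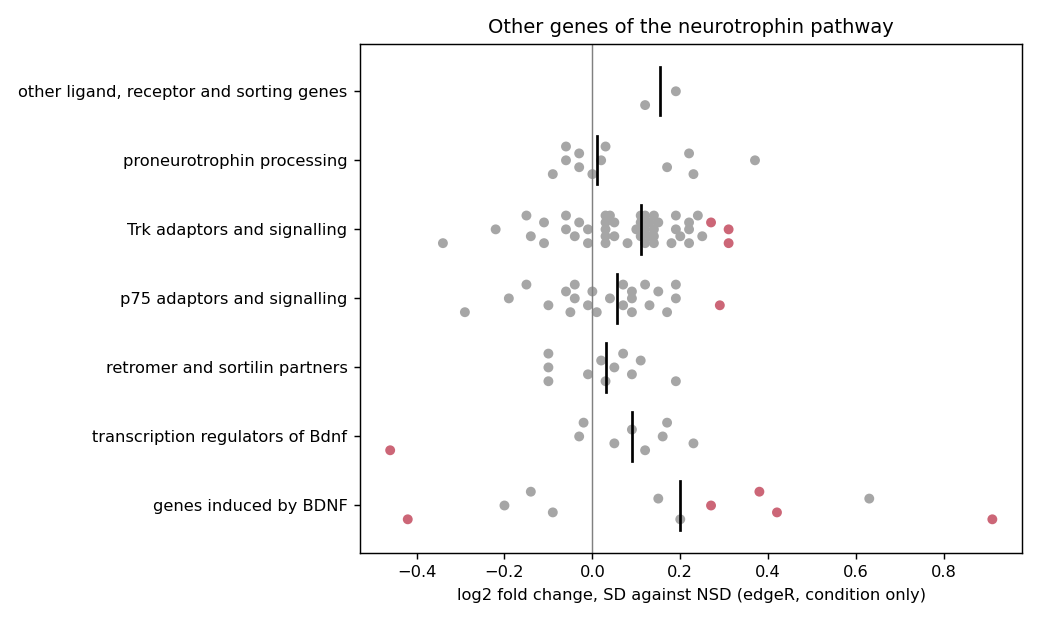
Log2 fold change (SD over NSD, edgeR) of each tested gene of the pathway lists, with a black bar at each list's median and red for genes called with the batch block. Values run from -0.46 (Npas4) to 0.91 (Arc), with 78 of the 116 above 0.

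The spans of 6 members hold or overlap 13 other annotated loci, and Ntf3, Ngfr and Sorcs3 have none. Of these, 12 are lncRNA or TEC loci (short unspliced transcripts marked for experimental testing), and 8 of the 12 passed the count filter. In 7 of the 8 the groups did not overlap and SD was the lower, an order held by 57.5% of all tested lncRNA and TEC genes. Of the 8, 4 were called lower with the block and 0 by edgeR without it. Over all 4273 tested lncRNA and TEC genes, 29.5% were called lower with the block, and their median log2 fold change was -0.70.

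The 4 called loci lie inside Ntrk2 or Sort1 and share 0 exon bases with them. Inside Ntrk2, Gm34245 (TEC, opposite strand) was at 2.66, 1.78, 1.08 and 0.375 CPM in NSD 1, NSD 2, SD 1 and SD 2. C630044B11Rik (TEC, same strand) was at 1.27, 0.802, 0.382 and 0.116 CPM. Gm47423 (lncRNA, opposite strand) was at 1.1, 0.579, 0.277 and 0.037 CPM. Each was highest in NSD 1 and lowest in SD 2. Inside Sort1, Gm43099 (TEC, same strand) was at 2.45, 1.54, 0.902 and 0.476 CPM. With the block their log2 fold changes were -1.74, -2.21, -2.76 and -1.56, with edgeR adjusted p of 0.00119, 0.00264, 0.00299 and 0.00135, and without it the adjusted p were 0.099, 0.0875, 0.125 and 0.0692.

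Of the other loci, 4 share exon bases with a member on the opposite strand, and strand use in the counting is not given in the sources used here, so reads of such pairs cannot be told apart. The widest overlap was that of Gm45346 with Bdnf, 1028 bases, and the locus held 0.549% of the Bdnf count. No overlapping locus held more than this share of its host's count.

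**Figure D5:**
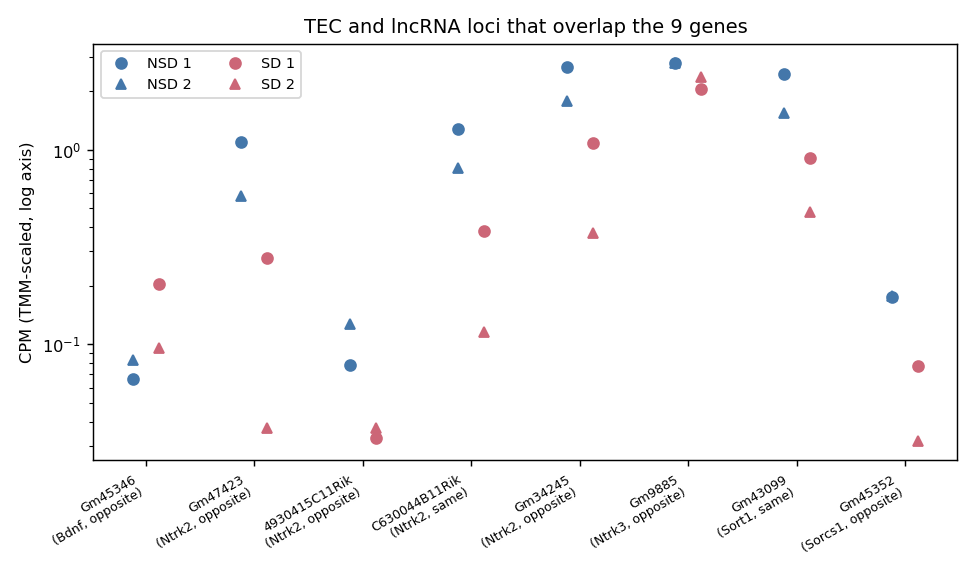
CPM of the tested loci that lie in or overlap members, in each library, on a log axis. Gm34245, C630044B11Rik, Gm47423 and Gm43099 have both SD libraries below both NSD libraries.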

How the data were processed

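The deposited table held estimated counts per gene, not normalized, which the authors made by trimming 3′ bases, aligning with STAR 2.7.8a to mm39 (GRCm39) and assigning reads to Ensembl release 110 with Partek's expectation-maximization model. Of its genes, 55.6% had a value that was not whole, so counts were rounded. The totals were 162943863 (NSD 1), 153511705 (NSD 2), 181914848 (SD 1) and 195910235 (SD 2), and the spread between libraries, not depth, limits precision for all but the rarest genes.

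Genes that exceeded 5 counts in all 4 libraries were tested in R 4.3.3 with edgeR 4.0.16 (TMM, glmQLFit, glmQLFTest) with condition as the only term, and p-values were adjusted over all genes tested by Benjamini-Hochberg. Genes were called at an adjusted p below 0.05 with a fold change of more than 1.2 either way. Standard errors were the log2 fold change over the square root of F. In the labels the batch number equals the replicate number and so pairs an NSD with an SD library. Paired libraries deviated from their groups' means with a correlation of 0.178 across genes. The fit with this number as a block was an alternative, as were DESeq2 1.42.0 with and without it, DESeq2 size factors, no filter, filterByExpr, protein-coding genes only, other fold thresholds and leaving out each library. The fits were tested on simulated counts that held no difference between batches, where the first runs missed their limits. The simulated spread was then taken from the data, and the tolerated share of false calls was raised, which the fit with the block needed to pass.

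Exon lengths came from GENCODE M39 on the same build, and promoters from RefSeq. All 9 members are named, and from each pathway list the genes called by edgeR without the block, or failing these the gene with the smallest p. Members and lists were chosen with earlier results of these data known. Some genes of the lists are not reported by name.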

Additional observations from a re-analysis of the deposited data

How the results depend on the processing

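No setting that was run turned the direction of Ngfr, Sorcs1, Sorcs2, Sorcs3, Ntrk2, Ntrk3 or Sort1. Of 63 results of single members under other settings, 49 kept their direction and side of the threshold, 11 passed the threshold and 3 changed sign. Of 36 that left out a library, 27, 6 and 3 did so. Members called higher numbered 2 with DESeq2, 3 with the replicate block and 3 with DESeq2 and the block, and 0 to 3 when a library was left out. Members called lower numbered 1, 1 and 1, and 0 to 1. Over all genes, 172 were called higher, and 669, 668 and 724 under the same 3 settings, 50 with no filter, 1 with filterByExpr, 51 among protein-coding genes, 43 at a fold change over 1.5, and 124 to 308 without a library. Genes called lower numbered 520, and 1294, 1891 and 1427, then 80, 0 and 39, and 78 to 1955 without a library (78 without NSD 1, 1955 without SD 1). Pathway genes called higher numbered 1, and 9, 8 and 10, 2 with DESeq2 size factors, 0 with filterByExpr, and 2 to 5 without a library; those called lower numbered 0, and 1, 2 and 1, and 0 to 1. The causes were not tested. DESeq2 size factors split the calls into 229 higher and 457 lower, and protein-coding genes alone into 51 and 39.

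Ntf3 was at 0.00 on the log2 scale with DESeq2 size factors and with DESeq2, at 0.01 with no filter, at 0.30 without SD 1 and at 0.03 without NSD 2, with a range of -0.42 to 0.30 without a library. Bdnf ranged from -0.12 to 0.05, Ntrk2 from 0.06 to 0.14, Ntrk3 from 0.07 to 0.15, Sort1 from 0.04 to 0.28, Ngfr from 0.59 to 0.86, Sorcs1 from 0.20 to 0.36, Sorcs2 from 0.27 to 0.60 and Sorcs3 from -0.45 to -0.25. Where a library is left out, the lone one of its group is assumed to vary like the others.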
